A study of Mus musculus with 4 samples.

Results

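The genes described here are those that encode the proteasome, its regulators and its assembly factors, chosen as every row of the expression table whose symbol starts with Psma to Psmg followed by a digit. The rule found 50 genes among 24341. They comprise 14 genes of the constitutive core (Psma1 to Psma7 and Psmb1 to Psmb7), 20 of the regulatory particle (Psmc and Psmd), 9 activators, inhibitor and core assembly chaperones (Psme, Psmf and Psmg), the 3 immunoproteasome catalytic subunits (Psmb8, Psmb9 and Psmb10) and 2 tissue-specific core genes (Psma8 and Psmb11). The other 2 matches are Psmc3ip, a recombination cofactor that is no proteasome subunit, and Psme2b, a near-identical copy of Psme2. The genes were matched by symbol, but the family itself was chosen by its FPKM values in the comparison of the same 4 libraries. Its differences between the groups are therefore a description, and limma's values beside them support nothing about the family.

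RNA was sequenced from CAD, the mouse cell line Cath.-a-differentiated, which is of catecholaminergic origin and grows neuron-like processes once serum is withdrawn. All cultures were without serum for 5 days. One group of 2 libraries received for 24 h 20 µM of ACSS2i, a small molecule that blocks the acetyl-CoA synthetase ACSS2, and the other 2 libraries received the solvent DMSO. No genetic alteration beyond the line itself is named in the labels, all 4 libraries come from that 1 line, and whether a group's libraries are separate cultures is not stated in the labels, so limma's p-values measure a spread that may be technical. ACSS2 turns acetate into acetyl-CoA, and the design asks how the transcriptome differs when that enzyme is blocked.

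The proteasome degrades proteins marked with ubiquitin. Its barrel-shaped core is built of outer rings of alpha subunits, which gate the entrance, and inner rings of beta subunits, of which Psmb5, Psmb6 and Psmb7 carry the active sites. The regulatory particle recognises ubiquitin, removes it and unfolds the substrate with a ring of ATPases. In cells exposed to interferon the catalytic subunits are replaced by Psmb8, Psmb9 and Psmb10, which form the immunoproteasome and favour peptides for antigen presentation. Neurons use the same machinery for protein turnover at synapses.

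Levels are FPKM, in which fragments are counted relative to transcript length and to the library's mapped fragments, a scale that allows genes of different length to be compared. Nominal depths, estimated from the steps between low values, were 7880000 and 10000000 reads in ACSS2i replicates 1 and 2, against 11700000 and 3400000 in DMSO replicates 1 and 2, so DMSO replicate 2 has the coarsest values. The FPKM values of the table summed to 558458 and 675716 in the ACSS2i libraries and to 590549 and 590108 in the DMSO libraries. The 50 genes held 0.807% and 0.916% of those sums in the ACSS2i libraries and 0.765% and 0.797% in the DMSO libraries. Among the defining catecholaminergic markers, Dbh was below 1 FPKM in all 4 libraries and Th averaged 3.43 FPKM. The neuronal markers, 6 of 6 of which averaged at least 1 FPKM, summed to 588 and 1249 FPKM in the ACSS2i libraries and to 866 and 913 FPKM in the DMSO libraries. The ACSS2i sums thus stood on either side of the DMSO sums. Taken singly, Map2, Gap43 and Stmn2 had that layout, Tubb3 and Snap25 overlapped in other ways, and Syp was lower in both ACSS2i libraries. The 4 catecholaminergic markers summed to 25.97 and 115 FPKM in the ACSS2i libraries, against 76.6 and 69.7 FPKM in the DMSO libraries. Most of that sum was Slc18a2, at 21.6 and 109 FPKM in ACSS2i libraries and 70.2 and 62.3 FPKM in DMSO libraries, while Th had 4.09 and 2.92 FPKM in ACSS2i libraries and 3.53 and 3.16 FPKM in DMSO libraries. The cycling markers Mki67 and Top2a summed to 41.8 and 69.2 FPKM in ACSS2i libraries, against 2.89 and 8.15 FPKM in DMSO libraries. Acss2 itself had 12.8 and 26.6 FPKM in ACSS2i libraries and 11.7 and 10.0 FPKM in DMSO libraries, which checks no label, since the inhibitor acts on the enzyme.

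Proteasome transcripts were abundant, and as a family they stood higher in ACSS2i replicate 2 than in any other library. Of the 50 genes, 47 averaged at least 1 FPKM and entered the fit. Among the 46 of these that belong to the proteasome (Psmc3ip left aside), the median log2 fold change was 0.20, against 0.02 over all 11486 genes tested, and 36 of 46 were positive, against 52.2% of all genes. Measured against the DMSO mean, the median of the 46 genes was -0.02 in ACSS2i replicate 1 and 0.43 in ACSS2i replicate 2, on the scale of log2(FPKM + 1). In ACSS2i replicate 2, 44 of 46 genes were above the DMSO mean, against 51.2% of all tested genes and 67.1% of those that averaged at least 50 FPKM. In ACSS2i replicate 1 it was 21 of 46, against 50.8% and 48.3%. In the bulk RNA of a culture, fewer cells with a transcript and less of it per cell cannot be told apart.

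None of the 47 genes passed limma's moderated test at a Benjamini-Hochberg adjusted p under 0.05, and 1 of them, Psmd11, had an unadjusted p under 0.05. Over all genes tested these shares were 0.0261% and 6.96%. The smallest adjusted p of the family by limma was 0.609. Both ACSS2i libraries lay above both DMSO libraries for 14 of the 46 genes (30.4%, against 19% of all tested genes). Both lay below for 2 of 46 (4.35%, against 18.3%), Psmb8 and Psme3. For 17 of 46 (37.0%, against 11.8%) ACSS2i replicate 1 was below and ACSS2i replicate 2 above both DMSO libraries, and for 0 of 46 it was the other way round (against 11.4%). Counting Psmc3ip, 15 of 47 genes were higher in both ACSS2i libraries. Without ACSS2i replicate 1 the count was 42 of 47, against 39% of all tested genes, and without ACSS2i replicate 2 it was 15 of 47, against 38.4%. It was 19 of 47 without DMSO replicate 1, against 32.1%, and 23 of 47 without DMSO replicate 2, against 31%. With 2 libraries a group, the smallest p of an exact permutation test is 0.333, so limma's fit across all genes is the test given for each gene.

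**Figure D1:**
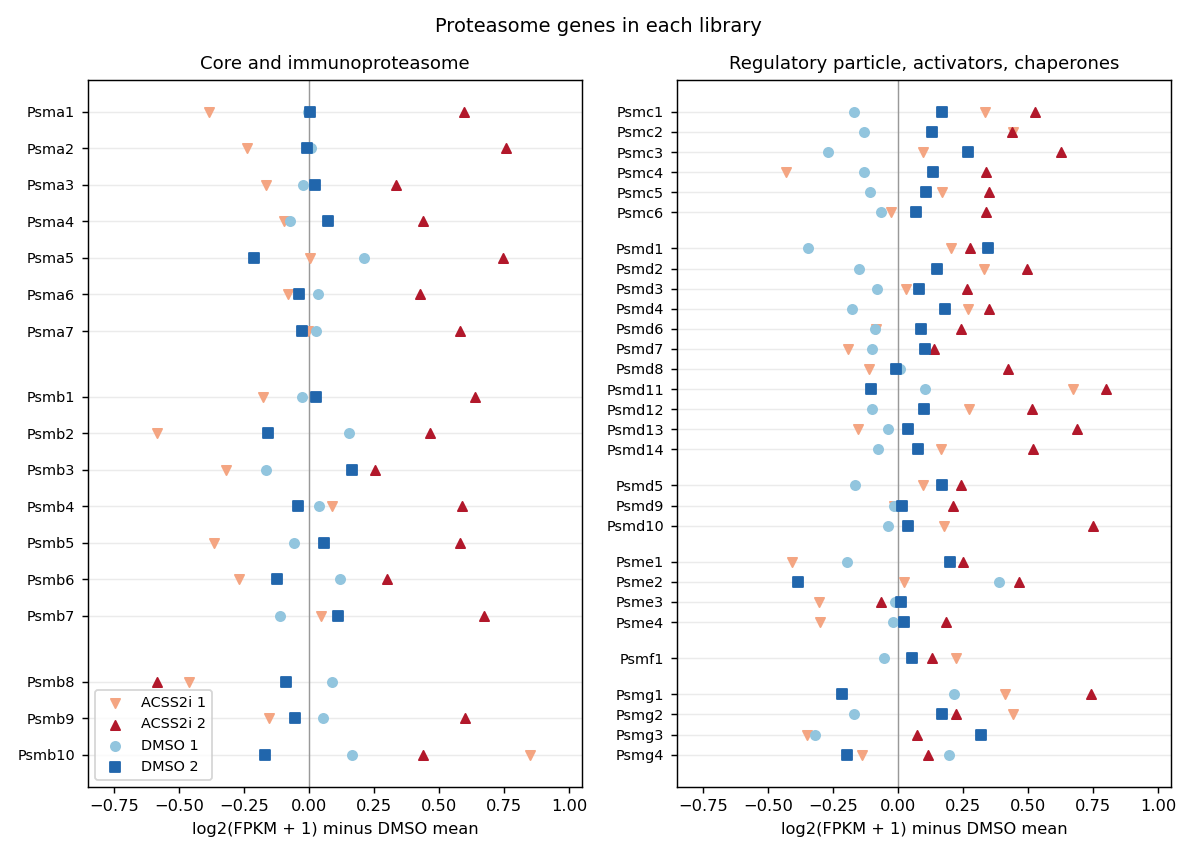
Level of each tested proteasome gene in each library, as log2(FPKM + 1) minus the mean of the 2 DMSO libraries, with 1 symbol per library. In the core, ACSS2i replicate 2 stands to the right of zero for all 14 genes while ACSS2i replicate 1 is mostly to the left, and in the regulatory particle both ACSS2i libraries are often to the right.

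Promoter sequence is shown for a few genes whose values are given in full further on: Psmb5 and Psmb8, which occupy the same active-site position in the constitutive and the immune form, Psma6, the most abundant core gene, and Psmd11, Psmd12 and Psmc2 from the regulatory particle. The windows run from 250 bases before to 50 bases after an annotated start and come from RefSeq (GRCm38.p6). Capitals mark matches, on either strand, to an ETS site (CCGGAAG), the core of the antioxidant response element (TGACNNNGC) or a CCAAT box (CCAAT). Positions count from 0 at the annotated start, and no matches overlap in the windows shown. Psmb5 (chr14:54617946-54618245, minus strand) held an antioxidant response element core that begins at -47. Psmb8 (chr17:34197945-34198244, plus strand) held no match, but this window lies inside the gene, whose annotated 5′ end is at 34197721. Sequence before that end was not covered. Psma6 and Psmc2 each have another window, not shown. For Psma6 the window shown (chr12:55398575-55398874, plus strand) held 3 ETS sites, at -132, -2 and 17, and the other, at the gene's 5′ start (chr12:55383972-55384271), held no ETS site and 2 CCAAT boxes. Psmd11 (chr11:80428365-80428664, plus strand) held an ETS site at -11. Psmd12 (chr11:107479278-107479577, plus strand) held an ETS site at -17 and an antioxidant response element core at -247. Psmc2 (chr5:21785025-21785324, plus strand) held an ETS site at -84 and a CCAAT box at -28, and its other window (chr5:21786497-21786796) held an ETS site at -24 and an E2F site at 14.
Psmb5: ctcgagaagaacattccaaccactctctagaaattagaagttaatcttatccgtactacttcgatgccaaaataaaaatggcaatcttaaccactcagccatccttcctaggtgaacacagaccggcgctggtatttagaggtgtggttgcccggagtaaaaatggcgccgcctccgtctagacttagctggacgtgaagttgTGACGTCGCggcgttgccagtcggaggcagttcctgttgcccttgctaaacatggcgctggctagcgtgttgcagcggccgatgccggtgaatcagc
Psmb8: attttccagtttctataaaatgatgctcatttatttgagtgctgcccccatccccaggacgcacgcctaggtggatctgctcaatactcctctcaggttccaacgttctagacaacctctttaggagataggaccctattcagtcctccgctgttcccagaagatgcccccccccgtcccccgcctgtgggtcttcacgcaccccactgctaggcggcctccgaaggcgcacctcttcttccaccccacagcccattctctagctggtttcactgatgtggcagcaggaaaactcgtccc
Psma6: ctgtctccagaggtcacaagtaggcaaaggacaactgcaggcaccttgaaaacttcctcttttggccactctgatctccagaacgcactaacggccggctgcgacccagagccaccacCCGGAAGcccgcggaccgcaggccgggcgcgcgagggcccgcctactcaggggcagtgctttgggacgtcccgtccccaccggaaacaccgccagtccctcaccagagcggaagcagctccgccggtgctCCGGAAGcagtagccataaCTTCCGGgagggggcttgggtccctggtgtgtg
Psmd11: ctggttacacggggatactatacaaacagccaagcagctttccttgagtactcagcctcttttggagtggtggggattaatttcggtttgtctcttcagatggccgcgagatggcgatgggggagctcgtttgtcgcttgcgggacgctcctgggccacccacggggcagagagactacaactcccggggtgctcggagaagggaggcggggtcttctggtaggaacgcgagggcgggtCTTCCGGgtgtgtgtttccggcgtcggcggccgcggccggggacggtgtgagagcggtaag
Psmd12: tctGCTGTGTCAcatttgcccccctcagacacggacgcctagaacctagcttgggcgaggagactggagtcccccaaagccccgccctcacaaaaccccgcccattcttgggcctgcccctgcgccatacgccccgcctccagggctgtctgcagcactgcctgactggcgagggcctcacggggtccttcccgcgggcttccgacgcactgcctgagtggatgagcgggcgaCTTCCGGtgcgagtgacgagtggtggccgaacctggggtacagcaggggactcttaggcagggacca
Psmc2: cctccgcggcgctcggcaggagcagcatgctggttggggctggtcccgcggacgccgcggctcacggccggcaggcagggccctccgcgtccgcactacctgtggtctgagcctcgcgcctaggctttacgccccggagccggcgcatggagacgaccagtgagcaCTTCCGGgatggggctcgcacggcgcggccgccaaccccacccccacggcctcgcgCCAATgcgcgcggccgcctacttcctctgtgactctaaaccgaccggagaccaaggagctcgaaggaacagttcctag

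Windows were found for 42 of the 50 genes, 45 windows in all. The ETS site was in 16 of the 45 (35.6%), against 18.3% of the 11164 windows of tested genes and 8.86% of all 32851 windows. By class it was found for 9 of 17 regulatory particle genes, 4 of 8 activator, inhibitor and core chaperone genes, 1 of 11 core genes and 0 of 3 immunoproteasome genes. The Psmb8 window lies inside the gene, so sequence before its annotated 5′ end was not searched for the ETS site or the other motifs. Of the 9 regulatory particle genes with the site, 6 lay higher in both ACSS2i libraries than in both DMSO libraries, and of the 8 without it, 3 did. In the core, 0 of 1 gene with the site and 1 of 10 without it did. The share of all tested genes was 19%, and it was not split by the site. The core of the antioxidant response element, a sequence bound by the NRF transcription factors that act on proteasome genes, was in 13.3% of the family's windows and in 14.4% of the windows of tested genes. It was found for Psmb5, Psmb6, Psmc6, Psmd9, Psmd12 and Psme4. The CCAAT box was in 33.3%, against 38.2% of the windows of tested genes, and was found for 6 of 11 core genes. An interferon response element was in 11.1% (Psmb3, Psmd4, Psmd9, Psme1 and Psmg4), against 2.62%, and in none of the 3 immunoproteasome windows. For Psmb8 that absence covers only sequence inside the gene. A nuclear respiratory factor site was in the windows of Psma2 and Psmg1. The E2F site TTTCCCGC was in the windows of Psmc2 and Psmc4, against 2.01% of the windows of tested genes. Its other form, TTTGGCGC, was in that of Psmb9, against 1.00%. A match describes the letters of the window and says nothing of binding, and no test was made of these shares.

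Among the 50 genes, the most abundant subunit transcripts were Psma6 and then Psma7, both of the alpha ring of the core. Psma6, a structural subunit of that ring (chr12:55384222-55418454, plus strand, mm10), had 429.8 and 610.2 FPKM in the ACSS2i libraries, against 466 and 443 FPKM in the DMSO libraries. The DMSO libraries lay between the ACSS2i libraries, and the log2 fold change was 0.17 ± 0.30 (limma's SE, n = 2 per group). Psma7, another alpha subunit, had 227 and 341 FPKM in ACSS2i libraries, against 232 and 223 FPKM in DMSO libraries. Psma1 had 72.3 and 143 FPKM in ACSS2i libraries and 94.3 and 94.7 FPKM in DMSO libraries, so the DMSO libraries were nearly equal while the ACSS2i libraries stood well to either side. Psma2 had the same layout, with 109 and 218 FPKM in ACSS2i libraries and 129 and 128 FPKM in DMSO libraries. Its log2 difference between the ACSS2i libraries was 0.99, against -0.01 between the DMSO libraries. Psma3 had 178 and 251 FPKM in ACSS2i libraries and 196 and 203 FPKM in DMSO libraries. Psma4 had 161 and 233 FPKM in ACSS2i libraries and 163 and 180.5 FPKM in DMSO libraries. Both again had the lowest and the highest value in the ACSS2i group. Psma5, with 94.3 and 158 FPKM in ACSS2i libraries and 109 and 81.0 FPKM in DMSO libraries, had the highest log2 fold change of the core, 0.38 ± 0.34 (SE), with groups that overlapped.

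In the beta ring 5 of 7 genes had that layout. The exceptions were Psmb4, a structural subunit, and Psmb7, which carries the trypsin-like active site. Psmb4 had 104 and 148 FPKM in ACSS2i libraries, against 100.9 and 95.3 FPKM in DMSO libraries, a log2 fold change of 0.34 ± 0.27 (SE), and was the 1 core gene whose groups did not overlap. Psmb7 had 189 and 291 FPKM in ACSS2i libraries, against 169 and 197 FPKM in DMSO libraries. Among the structural subunits, Psmb1 was the most abundant of the beta ring, with 173 and 305 FPKM in ACSS2i libraries and 192 and 199 FPKM in DMSO libraries. Psmb2 had 45.5 and 95.4 FPKM in ACSS2i libraries, against 76.7 and 61.6 FPKM in DMSO libraries, and the lowest log2 fold change of the core, -0.06 ± 0.39 (SE). Psmb3 had 66.1 and 98.9 FPKM in ACSS2i libraries and 73.5 and 92.9 FPKM in DMSO libraries. The group means of Psmb2 and Psmb3 were thus close while their ACSS2i libraries were far apart.

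Summed over the 14 core genes, the level was 1968 and 3086 FPKM in the ACSS2i libraries, against 2157 and 2139 FPKM in the DMSO libraries. The DMSO libraries differed by little, and the ACSS2i libraries lay below and above them. The layout with ACSS2i replicate 1 below and replicate 2 above both DMSO libraries held for 10 of 14 core genes (71.4%), against 11.8% of all tested genes and 18.8% of the 1722 tested genes that averaged at least 50 FPKM. The sums of the whole table had that layout too (558458 and 675716 FPKM, against 590549 and 590108 FPKM). Genes with the layout were counted without rescaling to equal sums. With rescaling, the core's median log2 fold change was 0.12, against -0.03 over all genes. Without it, these medians were 0.17 and 0.02. The median core gene was at -0.17 in ACSS2i replicate 1 and at 0.58 in ACSS2i replicate 2, as log2 differences from the DMSO mean. The alpha ring sum was 1.82 and 1.73 times the beta ring sum in the ACSS2i libraries and 1.81 and 1.72 times in the DMSO libraries, so the rings kept nearly the same proportion in every library.

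Transcript length moved with the difference between the ACSS2i libraries. Among tested coding genes, the median log2 difference of ACSS2i replicate 2 from replicate 1 was 0.31 for the 537 genes whose longest coding transcript is under 1000 bases, 0.19 for 1000 to 2000 bases, 0.01 for 2000 to 4000 bases and -0.07 above that. It was 0.60 for the core genes, whose median length is 1163 bases, and 0.23 for the tested genes at 50 FPKM or more. The part of length, depth, the unequal table sums and the summed neuronal markers in the core's difference between these libraries was not tested.

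**Figure D2:**
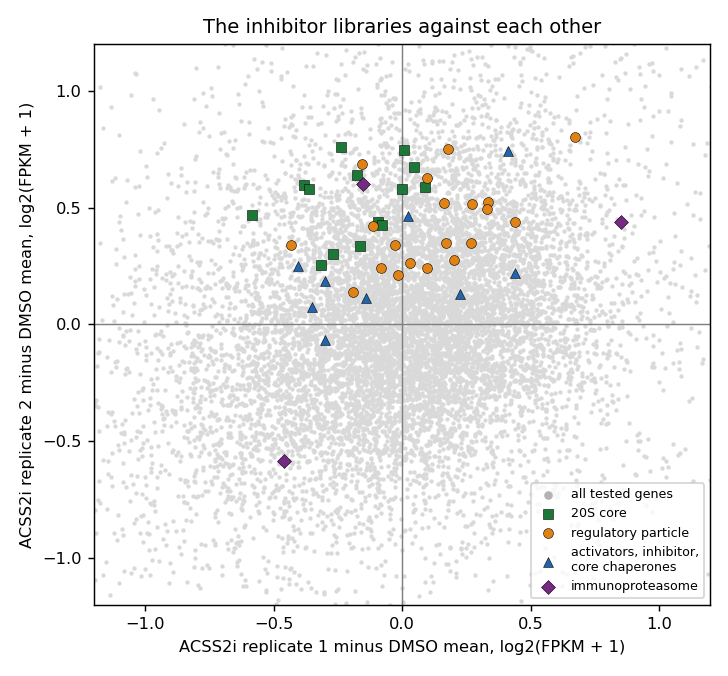
Log2(FPKM + 1) difference from the DMSO mean in ACSS2i replicate 1 (horizontal) and ACSS2i replicate 2 (vertical), with 1 point per tested gene and the proteasome classes in colour; 800 genes lie outside the plotted range. All 14 core genes lie above the horizontal line and 11 of them at or left of the vertical line, while regulatory particle genes fall mainly in the upper right.

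In the regulatory particle both ACSS2i libraries lay above both DMSO libraries for 9 of 20 genes (45%, against 19% of all tested genes) and below for 0 of 20. The core count was 1 of 14, and the difference between the classes was not tested. Its median log2 fold change was 0.26. The median gene stood at 0.13 in ACSS2i replicate 1 and at 0.38 in replicate 2, and 13 and 20 of the 20 genes were above the DMSO mean in those libraries. The layout that was common in the core held for 4 of 20 (Psmc4, Psmd7, Psmd8 and Psmd13).

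Among the ATPases, which unfold the substrate, Psmc2 (chr5:21785283-21803787, plus strand) had 100.4 and 100.2 FPKM in ACSS2i libraries, against 67.2 and 80.8 FPKM in DMSO libraries. Its ACSS2i libraries were nearly equal and above both DMSO libraries, with a log2 fold change of 0.44 ± 0.24 (SE) and the highest of the 6 ATPases. Psmc1 had 149.8 and 171 FPKM in ACSS2i libraries and 105 and 134 FPKM in DMSO libraries. Psmc5 had 135 and 153 FPKM in ACSS2i libraries and 111 and 129 FPKM in DMSO libraries. Neither overlapped between groups. Psmc3 had 74.1 and 107 FPKM in ACSS2i libraries and 57.3 and 83.6 FPKM in DMSO libraries. Psmc6, the most abundant ATPase transcript, had 136 and 175 FPKM in ACSS2i libraries and 132 and 145 FPKM in DMSO libraries. These last genes had overlapping groups. Psmc4 had 44.7 and 77.0 FPKM in ACSS2i libraries and 55.3 and 66.6 FPKM in DMSO libraries, with the lowest log2 fold change of the regulatory particle, -0.05 ± 0.32 (SE).

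Psmd11, a scaffold subunit of the lid (chr11:80428615-80473248, plus strand), had the highest log2 fold change of the family. It had 75.5 and 82.6 FPKM in ACSS2i libraries, against 50.6 and 43.7 FPKM in DMSO libraries. Both groups were tight relative to the gap between them, with a log2 fold change of 0.74 ± 0.23 (SE), an unadjusted p of 0.0202 and an adjusted p of 0.609 by limma. Psmd11 shares near-identical stretches with 2 other annotated genes, and the sources used here do not give how reads were divided among them. Psmd12, another lid subunit, had 117 and 139 FPKM in ACSS2i libraries and 90.4 and 104 FPKM in DMSO libraries. Psmd14, the deubiquitinase of the lid, had 118 and 151 FPKM in ACSS2i libraries and 99.7 and 111 FPKM in DMSO libraries. Neither gene overlapped between groups.

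The ubiquitin receptor Psmd4 had 182 and 193 FPKM in ACSS2i libraries and 133 and 171 FPKM in DMSO libraries. Psmd2, the scaffold of the base that docks shuttle factors, had 81.8 and 91.9 FPKM in ACSS2i libraries and 58.5 and 72.1 FPKM in DMSO libraries. Both were higher in both ACSS2i libraries. Its partner Psmd1 had 80.7 and 85.1 FPKM in ACSS2i libraries and 54.9 and 89.3 FPKM in DMSO libraries, where DMSO replicate 2 was the highest of all. Psmd7, the structural partner of Psmd14 and the most abundant transcript of the regulatory particle, had 177 and 223 FPKM in ACSS2i libraries and 189 and 217 FPKM in DMSO libraries, a log2 fold change of -0.03 ± 0.27 (SE). The lid subunit Psmd13 had 52.8 and 95.6 FPKM in ACSS2i libraries and 57.4 and 60.6 FPKM in DMSO libraries, and Psmd8 had 48.9 and 71.2 FPKM in ACSS2i libraries and 53.3 and 52.7 FPKM in DMSO libraries. These 3 had the layout common in the core. The lid subunits Psmd3 and Psmd6, with log2 fold changes of 0.15 and 0.08, had overlapping groups.

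The base assembly chaperones differed among themselves. Psmd10, also known as gankyrin, had 37.9 and 56.8 FPKM in ACSS2i libraries and 32.5 and 34.3 FPKM in DMSO libraries, with no overlap and a log2 fold change of 0.46 ± 0.28 (SE). Psmd5 had 19.3 and 21.4 FPKM in ACSS2i libraries and 15.9 and 20.3 FPKM in DMSO libraries. Psmd9 had 11.9 and 14.1 FPKM in ACSS2i libraries and 11.9 and 12.2 FPKM in DMSO libraries. Both had overlapping groups.

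Summed over the 17 subunit genes of the regulatory particle, without those chaperones, the level was 1703 and 2075 FPKM in the ACSS2i libraries and 1441 and 1702 FPKM in the DMSO libraries. ACSS2i replicate 1 and DMSO replicate 2 were almost equal. The core sum was 1.16 and 1.49 times that sum in the ACSS2i libraries, against 1.497 and 1.26 times in the DMSO libraries. Each group therefore held 1 library with a high ratio and 1 with a low ratio, and the groups overlapped.

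**Figure D3:**
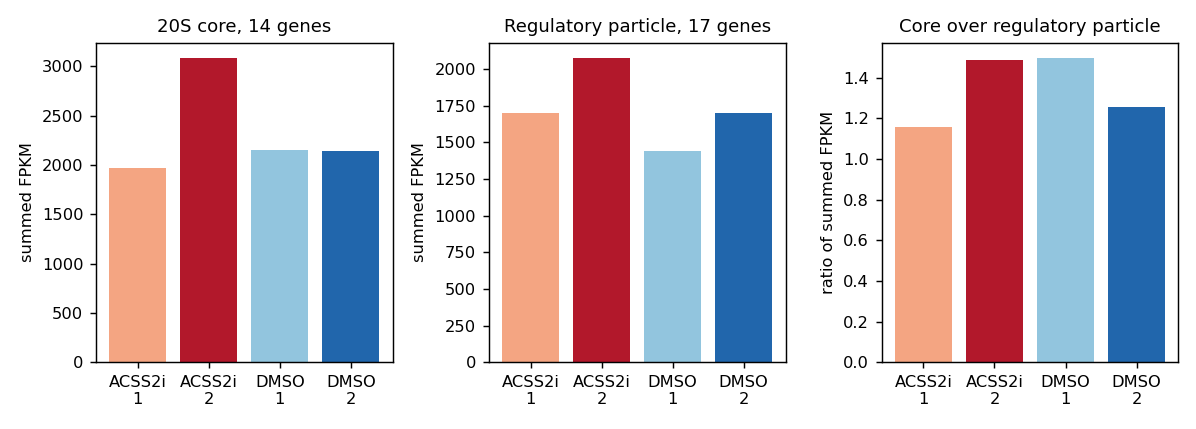
Summed FPKM of the 14 core genes, summed FPKM of the 17 regulatory particle subunit genes, and the ratio of the sums, with 1 bar per library and all axes from 0. The core sum is near 2000 FPKM in 3 libraries and 3086 FPKM in ACSS2i replicate 2, and the ratio does not separate the groups.

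The immunoproteasome subunits differed in direction. Psmb8, which takes the place of Psmb5 (chr17:34197721-34201454, plus strand), had 14.5 and 13.2 FPKM in ACSS2i libraries, against 21.6 and 19.003 FPKM in DMSO libraries. Both ACSS2i libraries were below both DMSO libraries, with a log2 fold change of -0.52 ± 0.22 (SE), an unadjusted p of 0.0579 and an adjusted p of 0.737 by limma. Psmb10, which takes the place of Psmb7 (chr8:105935735-105938444, minus strand), had 9.83 and 7.14 FPKM in ACSS2i libraries, against 5.74 and 4.35 FPKM in DMSO libraries. Both ACSS2i libraries were above both DMSO libraries, with a log2 fold change of 0.64 ± 0.27 (SE), an unadjusted p of 0.0558 and an adjusted p of 0.733 by limma. Psmb9, which takes the place of Psmb6 and lies beside Psmb8 (chr17:34181987-34187764, minus strand), had 0.784 and 2.01 FPKM in ACSS2i libraries and 1.06 and 0.908 FPKM in DMSO libraries. These levels stand for a nominal 8.36 and 27.1 reads in ACSS2i libraries and 16.8 and 4.17 reads in DMSO libraries, and exons of Psmb9 overlap those of Tap1 on the opposite strand.

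The constitutive counterparts were far more abundant in 2 of the 3 positions. Psmb5, which carries the chymotrypsin-like site (chr14:54614119-54618022, minus strand), had 29.7 and 58.1 FPKM in ACSS2i libraries and 37.0 and 40.1 FPKM in DMSO libraries, the lowest mean of the core. Psmb8 made up 32.7% and 18.5% of the sum of Psmb8 and Psmb5 in ACSS2i libraries and 36.9% and 32.1% in DMSO libraries. The share in ACSS2i replicate 1 lay within the DMSO range, and that in replicate 2 was below it. Psmb6, which carries the caspase-like site, had 90.5 and 135 FPKM in ACSS2i libraries and 119 and 100.4 FPKM in DMSO libraries. Psmb9 was 0.859% and 1.47% of the sum with Psmb6 in ACSS2i libraries and 0.883% and 0.897% in DMSO libraries. Psmb10 was 4.95% and 2.39% of the sum with Psmb7 in ACSS2i libraries and 3.29% and 2.16% in DMSO libraries, with overlapping groups.

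**Figure D4:**
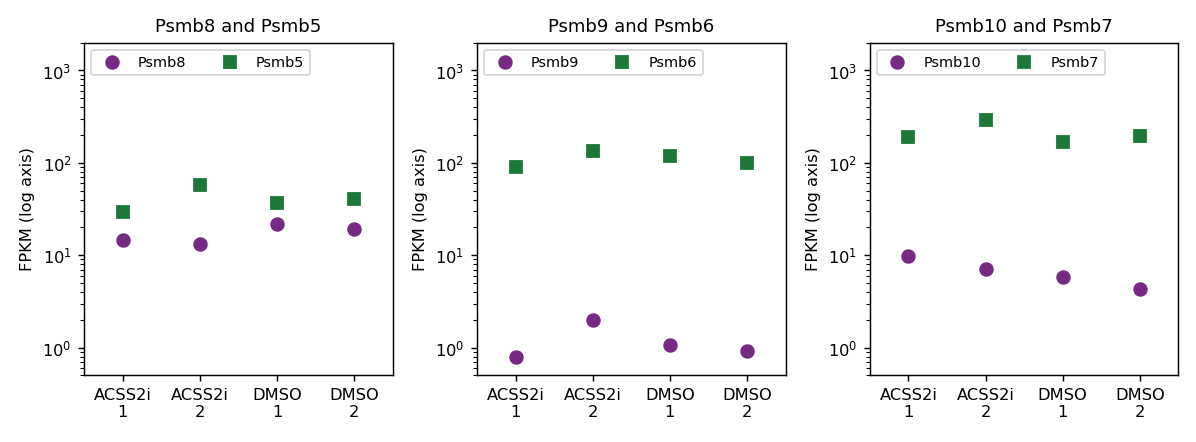
FPKM of each immunoproteasome catalytic subunit and of its constitutive counterpart in each library, on a log axis, with 1 symbol per gene and library. Psmb8 lies below Psmb5 in every library, between 13.2 and 21.6 FPKM, whereas Psmb9 and Psmb10 lie far below Psmb6 and Psmb7.

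Genes that accompany the immunoproteasome in antigen presentation were set beside these values. B2m, the light chain of class I molecules, had 90.4 and 139 FPKM in ACSS2i libraries and 142 and 176 FPKM in DMSO libraries, and the peptide transporter gene Tap2 had 19.4 and 13.0 FPKM in ACSS2i libraries and 19.9 and 21.9 FPKM in DMSO libraries. Both were lower in both ACSS2i libraries, as Psmb8 was. Tap1 and Irf1 had overlapping groups. Of the 5 markers of blood-derived cells, which use the immunoproteasome, C1qa was at the floor of 0.01 FPKM in all 4 libraries and Ptprc at or near it. Their summed level was 11.6 and 10.5 FPKM in ACSS2i libraries and 25.5 and 36.4 FPKM in DMSO libraries. Nearly all of it was Cd74, the class II invariant chain, at 10.4 and 9.84 FPKM in ACSS2i libraries and 24.3 and 35.6 FPKM in DMSO libraries. Cd68 had 0.903 and 0.458 FPKM in ACSS2i libraries and 0.762 and 0.784 FPKM in DMSO libraries. Aif1 had 0.352 and 0.138 FPKM in ACSS2i libraries and 0.475 and 0.01 FPKM in DMSO libraries. Neither marker separated the groups. Whether the levels of Cd74 and Psmb8 are related was not tested.

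Among the 9 activators, inhibitor and core chaperones the median log2 fold change was -0.01. It was -0.14 without ACSS2i replicate 2 and 0.18 without ACSS2i replicate 1. Psme1 and Psme2, neighbours on chromosome 14, form the activator ring that interferon raises. Psme1 had 123 and 194 FPKM in ACSS2i libraries and 142 and 187 FPKM in DMSO libraries. Psme2 had 70.2 and 95.7 FPKM in ACSS2i libraries and 90.6 and 52.7 FPKM in DMSO libraries. Their ratio was 1.75 and 2.03 in ACSS2i libraries and 1.57 and 3.55 in DMSO libraries, where the shallowest library had the extreme value. Psme3, the nuclear activator, had 58.3 and 68.9 FPKM in ACSS2i libraries and 71.6 and 72.7 FPKM in DMSO libraries, with both ACSS2i libraries lower and the lowest log2 fold change of these 9 genes, -0.18 ± 0.23 (SE). Psme4, the large activator also known as PA200, had 27.7 and 39.2 FPKM in ACSS2i libraries and 33.9 and 34.9 FPKM in DMSO libraries. The inhibitor Psmf1, also known as PI31, had 10.3 and 9.55 FPKM in ACSS2i libraries and 8.30 and 9.004 FPKM in DMSO libraries, higher in both.

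The core chaperones Psmg1 to Psmg4 help build the alpha ring. Psmg1 had 37.7 and 47.7 FPKM in ACSS2i libraries and 32.8 and 24.1 FPKM in DMSO libraries, with no overlap and a log2 fold change of 0.58 ± 0.27 (SE), the highest of these 9 genes. Its partner Psmg2 had 92.6 and 79.5 FPKM in ACSS2i libraries and 60.4 and 76.6 FPKM in DMSO libraries, also without overlap. Psmg4, the most abundant of the 9, had 295 and 352 FPKM in ACSS2i libraries and 373 and 284 FPKM in DMSO libraries. Its partner Psmg3 had 11.5 and 15.8 FPKM in ACSS2i libraries and 11.8 and 18.9 FPKM in DMSO libraries. The DMSO libraries spanned the ACSS2i libraries for Psmg4, and the groups overlapped for Psmg3.

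Of the remaining matches, Psma8, the alpha subunit of the germ line, was at the floor of 0.01 FPKM in all 4 libraries. Psmb11, the thymus catalytic subunit, was at 0.0291 and 0.0229 FPKM in ACSS2i libraries, a nominal 1 read in each, and at the floor in both DMSO libraries, so no difference was detectable at this depth. Psme2b had 0.138 and 0.109 FPKM in ACSS2i libraries and 0.01 and 0.319 FPKM in DMSO libraries. Psmc3ip had 12.1 and 9.92 FPKM in ACSS2i libraries and 7.98 and 9.60 FPKM in DMSO libraries, higher in both. In all, 10 of the 50 genes share a near-identical stretch with another annotated gene, and exons of 12 overlap a gene on the opposite strand. For those genes the values rest on how the authors' counting divided reads, which the sources used here do not give.

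The other genes of the pathway, from a list of 35 of which Paaf1 was not analysed here, had a median near that of all genes. Of the 34, 0 passed limma's test at an adjusted p under 0.05 and 0 had an unadjusted p under 0.05. Their median log2 fold change was -0.01, with 16 positive and 18 negative, 7 higher in both ACSS2i libraries (20.6%, against 19%) and 5 lower in both (14.7%, against 18.3%). The subunit Shfm1 had 544 and 888 FPKM in ACSS2i libraries and 596 and 599.6 FPKM in DMSO libraries. Pomp, the maturation factor of the core, had 113 and 209 FPKM in ACSS2i libraries and 149 and 123 FPKM in DMSO libraries. Both had the layout common in the core. The ubiquitin receptor Adrm1 had 59.9 FPKM in each ACSS2i library and 56.6 and 68.1 FPKM in DMSO libraries.

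The segregase Vcp, which extracts ubiquitinated proteins for the proteasome, had 103 and 108 FPKM in ACSS2i libraries and 62.3 and 80.9 FPKM in DMSO libraries, with a log2 fold change of 0.56 ± 0.25 (SE) and an adjusted p of 0.751 by limma. Its cofactor Nsfl1c had 104 and 100.1 FPKM in ACSS2i libraries and 78.9 and 80.5 FPKM in DMSO libraries. The ubiquitin-activating enzyme Uba1 had 68.4 and 73.2 FPKM in ACSS2i libraries and 46.3 and 57.5 FPKM in DMSO libraries, and the proteasome-bound deubiquitinase Usp14 had 38.0 and 39.1 FPKM in ACSS2i libraries and 31.1 and 29.9 FPKM in DMSO libraries. All 4 were higher in both ACSS2i libraries. Ubqln2, a shuttle factor, had 96.8 and 78.8 FPKM in ACSS2i libraries and 105 and 163 FPKM in DMSO libraries, lower in both.

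Nfe2l1, the transcription factor that raises proteasome genes when the proteasome is impaired, had 199.98 and 125 FPKM in ACSS2i libraries and 182 and 196 FPKM in DMSO libraries. Here ACSS2i replicate 2, where the core genes were highest, was the lowest library. Nfe2l2 had 64.3 and 44.0 FPKM in ACSS2i libraries and 58.9 and 82.6 FPKM in DMSO libraries. The protease Ddi2, which activates NFE2L1, had 32.1 and 22.0 FPKM in ACSS2i libraries and 27.8 and 35.4 FPKM in DMSO libraries. Both were lowest in the same library. Ngly1, a deglycosylase that acts on NFE2L1, had 5.36 and 4.15 FPKM in ACSS2i libraries and 3.97 and 2.12 FPKM in DMSO libraries, higher in both.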

How the data were processed

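The deposited table holds 1 value per gene and library, made by the authors. Per the submitters' processing notes the build was mm10 and the tools were Cufflinks 2.2.1, Cuffdiff, STAR 2.3.0 and bcl2fastq 02.14.01.07. No unit is named in the header; the deposited numbers are read here as FPKM, since Cufflinks reports that unit and the values behave so. The submitters call the table adjusted, without saying how, and its lowest value is 0.01. Per the labels, libraries were prepared from polyadenylated RNA with ScriptSeq v2. Sept7, with a failure mark in 1 library, was left out, which left 24340 genes.

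Genes averaging 1 FPKM or more over the 4 libraries, 11486 in all, were fitted with limma 3.58.1 (R 4.3.3) on log2(FPKM + 1), two-sided and with the variance trend, with Benjamini-Hochberg adjustment over all of them and a threshold of 0.05. The method was tested on simulated data with shifts larger than any log2 fold change of the family. That test says nothing about whether smaller shifts would be found. On this scale the log2 fold change of a low gene comes out too small. The members and lists were chosen with earlier results of these data known. Any member could be named, with full values for the catalytic subunits, the most abundant gene and the highest and lowest log2 fold change of each class. The motifs were also chosen with results in view. A gene of the pathway list is counted with the others but its values are not reported here.

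Nominal depths come from the steps between low values and from GENCODE M21 lengths, and they could be wrong by a whole factor. Coordinates of genes are from GENCODE M21 (GRCm38). Near-identical stretches were found with blastn 2.17.0, at 95% identity or more over at least 200 bases. Alternatives covered the pseudocount, the filter, the scaling, each library left out and the replicate number as a block. Rescaling to equal sums was added after seeing the data.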

Additional observations from a re-analysis of the deposited data

How the results depend on the processing

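Of the 12 other settings tried, those that left out a library kept only 1 in a group, so only their effect sizes and counts of position are given. No proteasome gene passed the threshold under the settings that kept all 4 libraries. In those, 1 to 4 genes had an unadjusted p under 0.05 by limma, the 4 of 50 without the filter. In the main fit 1 of 47 had one, against 6.96% of all tested genes, and that share was taken for the main fit only. The ACSS2i libraries decide the direction for the core. The core's median log2 fold change ran from -0.17 without ACSS2i replicate 2 to 0.58 without ACSS2i replicate 1. Leaving out each library in turn, the median ran from -0.021 to 0.43 for all proteasome genes, from 0.13 to 0.39 for the regulatory particle, from -0.14 to 0.18 for the activators, inhibitor and core chaperones, and from -0.15 to 0.44 for the immunoproteasome subunits. The count of genes higher in both ACSS2i libraries, 15 with Psmc3ip, was 14 to 16 under the settings that kept all 4 libraries. The shares of all genes in those fits were 11.8% to 19.6%. The count of 16 was of 50 genes without the filter (against 11.8%). It includes Psmb11, at a nominal 1 read in each ACSS2i library. The count of 14 was of 47 genes with values rescaled to the same sum (against 15.2%). When each library was left out, the count ran from 15 to 42. The count was 42 without ACSS2i replicate 1 (against 39% of all tested genes) and 23 without DMSO replicate 2 (against 31%). Without ACSS2i replicate 2 it was 15 (against 38.4%). Fewer libraries have to be in order whenever a library is left out, and the cause of the shifts was not tested. The log2 fold change changed sign for 15 of 47 genes without ACSS2i replicate 2, 8 without ACSS2i replicate 1, 7 without DMSO replicate 2 and 4 without DMSO replicate 1. It changed sign for 4 genes under quantile normalization, for 1 with values rescaled to the same sum, an alternative added after seeing the data, and for 0 under the other settings. With the replicate number as a block, 0 genes passed, 2 had an unadjusted p under 0.05, the median was 0.20 and the count was 15. Deviations of same-numbered libraries had a correlation of -0.02 across 11486 genes. Each group gives only 1 difference between its libraries, so this value cannot decide whether the numbers pair the libraries. Among the proteasome genes in the fit, Psmb9 rests on the fewest nominal reads.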
